A study of Arabidopsis thaliana with 13 samples.

Results

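ARR15 (AT1G74890) and RR16 (AT2G40670, also called ARR16) are Arabidopsis thaliana genes that encode type-A response regulators of cytokinin signalling. They were taken as the probe sets that the probe annotation assigns to these genes, which gave 2 probe sets, 1 for each gene, of 38408 on the array. The annotation gave 1 gene to 16722 probe sets, and 10984 genes passed the filter on low values and were tested. Both members passed it.

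The samples were cotyledons of 6-day-old seedlings of the accession Col-0, kept in vascular induction medium (the VISUAL system, in which leaf cells turn into xylem and phloem cells). The medium contained, per the labels, 0.25 mg/L of the cytokinin kinetin, 1.25 mg/L of 2,4-D, a synthetic auxin, and 10 µM bikinin, an inhibitor of GSK3-like kinases, and every culture received all 3 agents. Total RNA was collected every 6 h from 0 to 72 h and put on 1 array per time, 13 arrays in all, with no replicate of any time. For tests the times were joined into an early window (6 to 24 h), a middle window (30 to 48 h) and a late window (54 to 72 h) of 4 arrays each, beside the 0 h array. Since no culture without kinetin was among the samples, the parts of kinetin, 2,4-D, bikinin and time in culture in any change cannot be told apart.

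Cytokinin is sensed by histidine kinase receptors, which pass phosphate through phosphotransfer proteins to response regulators. Type-B regulators are transcription factors that switch on cytokinin target genes. Type-A regulators are themselves quick targets of that signal and dampen it, so their transcripts are widely used as a readout of cytokinin response. In vascular tissue, cytokinin keeps procambial cells dividing and restrains protoxylem formation, and auxin and cytokinin act against each other there. ARR15 is also known as an auxin-regulated gene of the embryonic root, and RR16 acts in the stomatal lineage of leaves.

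The deposited log values were read as log2, a base that no source used here states, and every fold below depends on it. By overall level there were 2 array sets. The 5 arrays of 0 to 24 h had medians from 5.15 to 5.35, and the 8 arrays of 30 to 72 h had medians from 5.82 to 5.99. Values were therefore centred array by array on the median. Since the sets part between 24 and 30 h, a change from the early to the middle window and a shift between sets cannot be told apart. The other 2 comparisons stay inside 1 set each. The SD of a window includes change within it, and the p-values reflect the spread between these arrays and nothing else. In whole cotyledons, fewer cells of a type and less RNA per cell cannot be told apart.

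ARR15 was lowest at 0 h and reached a plateau within the first day. Its centred level was 3.72 at 0 h, 4.42 at 6 h, 5.87 at 12 h, 6.14 at 18 h and 6.08 at 24 h. It then stood at 5.39 at 30 h, 5.63 at 36 h, 5.50 at 42 h and 5.98 at 48 h. From 54 to 72 h the values were 6.03, 6.02, 6.01 and 6.18. The 72 h array was the highest. At 0 h the value was under the level of 4.03 set by the filter on low values, so ARR15 passed it only through its culture arrays. The largest 6 h step was the one from 6 to 12 h, with a log2 difference of 1.45 (2.73-fold). The largest step down, -0.69 from 24 to 30 h, joins arrays of different sets, and on the values as deposited that step was -0.15.

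RR16 followed another course, with a peak in the first 12 h, a low in the second day and a plateau in the third. Its centred level was 8.18 at 0 h, 9.51 at 6 h, 9.56 at 12 h, 8.63 at 18 h and 8.02 at 24 h. It stood at 8.34 at 30 h, 8.27 at 36 h, 7.56 at 42 h and 8.16 at 48 h. From 54 to 72 h it lay at 9.00, 9.11, 9.17 and 9.11. On centred values the highest array was that of 12 h and the lowest that of 42 h. Of the 12 culture arrays 3, those of 24, 42 and 48 h, were then below the 0 h array. On the values as deposited the 0 h array was the lowest, at 7.70, beside 7.72 at 24 h, 7.88 at 42 h and 8.50 at 48 h. The highest was then that of 66 h, at 9.44. The place of the second day against 0 h thus rested on the scaling across the array sets. The largest step up was the first, from 0 to 6 h, with a log2 difference of 1.33 (2.51-fold). The largest step down, -0.92, ran from 12 to 18 h. Both of these steps lie within the first array set.

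**Figure D1:**
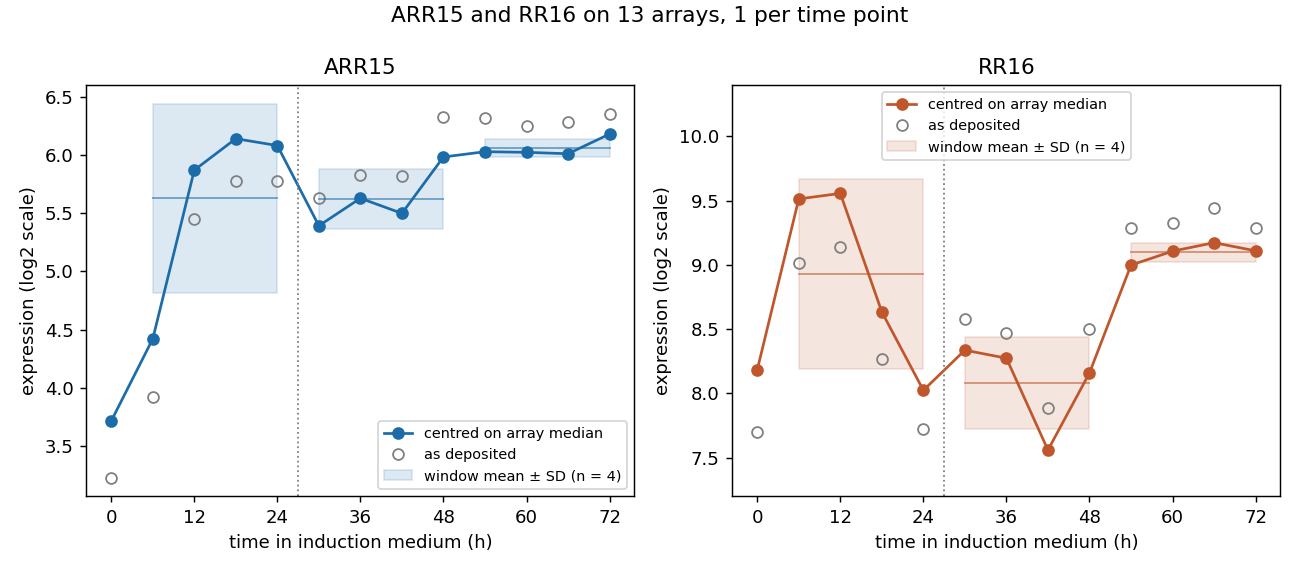
Expression of ARR15 (left) and RR16 (right) on a log2 scale against time in the induction medium in h. Filled points are single arrays after centring on the array median, open points are the deposited values, bands are window means ± SD (n = 4 arrays) and the dotted line marks the break between the array sets. ARR15 goes from 3.72 at 0 h to 6.14 at 18 h and ends at 6.18, while RR16 peaks at 9.56 at 12 h, reaches 7.56 at 42 h and ends at 9.11.

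The rank of each probe set within its own array does not depend on how arrays are scaled to each other. ARR15 stood at percentile 20.2 of all probe sets at 0 h, at 32.2 at 6 h and at 52.6 at 12 h. From 18 h on it lay between 47.0 at 30 h and 56.2 at 72 h, so that it went from the dim part of the array to the middle. RR16 was in the bright part throughout. Its percentile was 78.9 at 0 h, 89.5 at 6 h, 90.2 at 12 h and 78.1 at 24 h. In the second day it was 82.0 at 30 h, 80.8 at 36 h, 73.7 at 42 h and 80.7 at 48 h. In the late window it lay between 87.8 and 89.2. The early peak and the third-day plateau of RR16 and the first-day rise of ARR15 are therefore also seen in ranks. By rank the second-day arrays of RR16 lay below its peak and its plateau, but of them only that of 42 h lay below the 0 h array.

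**Figure D2:**
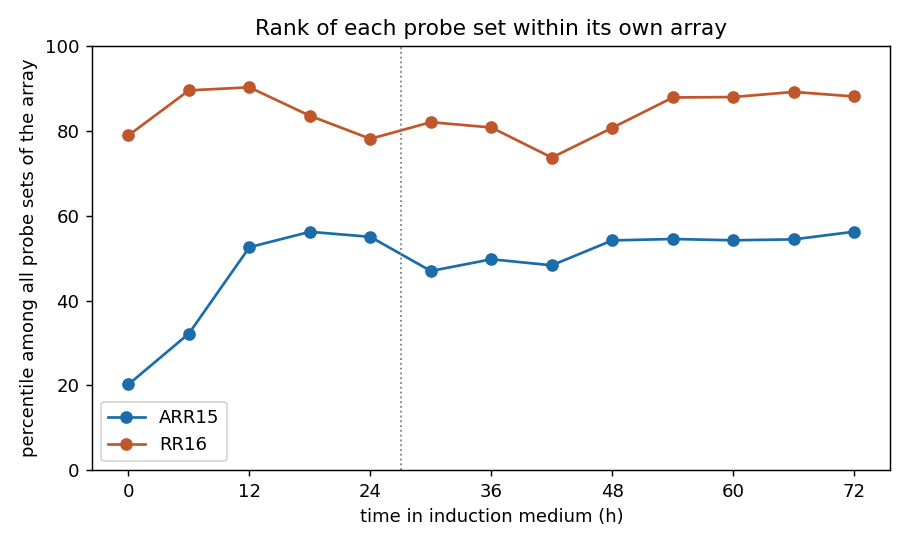
Percentile of the ARR15 and RR16 probe sets among all 38408 probe sets of the same array, against time in the induction medium in h. Each point is 1 array and the dotted line marks the break between the array sets. ARR15 climbs from percentile 20.2 at 0 h to 52.6 at 12 h, and RR16 has its lowest percentile, 73.7, at 42 h.

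The early window against 0 h asked what the first day of culture changed. ARR15 rose from 3.72 to 5.63 ± 0.81 (SD, n = 4), a log2 difference of 1.91 with a 95% interval from 0.84 to 2.98 (3.76-fold). Its 0 h value was under the filter level of 4.03, so ARR15 was tested only because its culture values were above it. No p is therefore given for this difference. A call needed a p under 0.05 after Benjamini-Hochberg adjustment over all genes, together with a log2 difference of 1 or more. ARR15 met this rule, but for the same reason its call here is not taken as a result. By that rule 6.3% of all genes were higher in this comparison. All 4 early arrays of ARR15 were above the 0 h array, as was the case for 26.9% of all genes. A larger difference than that of ARR15 was found for 2.53% of genes. The wide SD of the window comes from its 6 h array, without which the log2 difference was 2.31. The lone 0 h array is taken to scatter like the arrays inside a window. With the 5 arrays of 0 to 24 h alone in the fit, the same difference was not called. The 0 h value was dim, and a floor at the 40th percentile of each array reduced the log2 difference of ARR15 to 0.76, which was not called.

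RR16 did not pass the test over the whole early window. Its mean there was 8.93 ± 0.74 (SD, n = 4) against 8.18 at 0 h, a log2 difference of 0.75 with a 95% interval from -0.27 to 1.76 (adjusted p = 0.268 in limma). The window joins the peak at 6 and 12 h to the lower values at 18 and 24 h. With 6 and 12 h alone as the early window, RR16 rose by 1.35 on the log2 scale. It was called higher in that comparison, as were 6.09% of all genes. The 6 and 12 h arrays are the highest of RR16 on centred values, so this window sits on its peak. The call of RR16 there is therefore not taken as a result, and no p is given. In the same comparison ARR15 rose by 1.43. Without the 24 h array the whole-window difference of RR16 was 1.05 (adjusted p = 0.0434) and was called. The intervals of ARR15 and RR16 over the whole window overlap. Whether the members differed in this comparison was not tested, and with 1 array at 0 h the exact permutation test used for the other windows cannot go below p = 0.2.

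What the second day changed was asked by comparing the middle with the early window, across the break between the array sets. ARR15 had the same mean in both, 5.63 ± 0.26 (SD, n = 4) against 5.63 ± 0.81 (SD, n = 4). The 95% interval of its log2 difference ran from -0.68 to 0.67 (limma adjusted p = 0.995), so changes within that interval could not be told from none. The sign of this difference depended on the scaling. It was 0.06 under quantile normalization, 0.19 with centring on probe sets of 1 named gene and 0.67 on the values as deposited, and none of these passed the test.

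RR16 was lower in the middle window, at 8.08 ± 0.36 (SD, n = 4) against 8.93 ± 0.74 (SD, n = 4). The log2 difference of -0.85 had a 95% interval from -1.49 to -0.21. Its limma adjusted p was 0.0263, but the difference stayed under the minimum of 1 and was not called. In this comparison 8.3% of all genes, 912, were called lower, and on the values as deposited 151 were. The windows overlapped, since the 24 h array (8.02) lay below 3 of the 4 arrays of the middle window. Without the 24 h array the difference was -1.15 (adjusted p = 0.00108) and was called. On the values as deposited it was -0.18, so its size rested on the scaling across the array sets.

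What the third day changed was asked by comparing the late with the middle window, within 1 array set. RR16 rose from 8.08 ± 0.36 (SD, n = 4) to 9.10 ± 0.07 (SD, n = 4), 2.02-fold. The log2 difference of 1.01 had a 95% interval from 0.37 to 1.66 (limma adjusted p = 0.0375). All 4 late arrays were above all 4 middle arrays, as was the case for 16% of all genes, while 3.91% of all genes were called higher. The difference lies at the minimum of 1, and scaling alone ended the call, with 0.99 after quantile normalization and 0.98 on the values as deposited, at adjusted p of 0.0282 and 0.0279. Leaving out any single array of the 8 also ended it, mostly through the adjusted p, which was highest, 0.108, without the 42 h array. With the 8 arrays of 30 to 72 h alone in the fit, RR16 was called with an adjusted p of 0.00187.

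ARR15 stood at 6.06 ± 0.08 (SD, n = 4) in the late window against 5.63 ± 0.26 (SD, n = 4) in the middle window. All 4 late arrays were above all 4 middle arrays, as was the case for 16% of all genes. The log2 difference of 0.43 had a 95% interval from -0.24 to 1.11 (limma adjusted p = 0.407) and was not called. With the 8 arrays of 30 to 72 h alone its adjusted p was 0.0429, with the same difference, which is under the minimum of 1. The 48 h array (5.98) was nearer to the late arrays than to the other 3 of the middle window.

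By mean level, the order of the groups was late, early, middle and 0 h for ARR15. The late and early means differed by less than the SD of the early window, and the early and middle means were equal to 2 decimals. The late mean was above the middle mean by 0.43, which was not called. The 0 h value was the lowest, but it was under the filter level of 4.03. For RR16 the order on centred values was late, early, 0 h and middle. On the values as deposited its 0 h array lay below all arrays of the middle window. Its late and early means differed by less than the SD of the early window too, and the 0 h value lay within 1 SD of the middle mean.

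The values of 2 probe sets cannot be set against each other as levels, but the change over time of their within-array difference does not depend on the centring. ARR15 minus RR16 was -4.47 at 0 h, -5.09 at 6 h, -3.69 at 12 h, -2.49 at 18 h and -1.94 at 24 h on the log2 scale. It lay at -2.94, -2.65, -2.06 and -2.18 from 30 to 48 h and between -3.16 and -2.93 in the late window. The difference was thus nearest to 0 at 24 h, where ARR15 was on its plateau and RR16 below its centred 0 h level. The late and middle values overlapped only through the 30 h array. The late against the middle window gave -0.58, from -2.46 ± 0.41 (SD, n = 4) to -3.04 ± 0.11 (SD, n = 4), and an exact two-sided permutation p of 0.0571, where 0.0286 is the smallest these arrays allow. Without the 30 h array the shift was -0.74 (exact permutation p = 0.0286). The middle against the early window gave 0.85 (exact permutation p = 0.343), and between 0.25 without the 6 h array (exact permutation p = 0.686) and 1.301 without the 24 h array (exact permutation p = 0.114). Neither comparison of all arrays passed 0.05, so unequal change of the members between windows was not detectable here. Of the 12 steps of 6 h, the members moved the same way in 6.

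**Figure D3:**
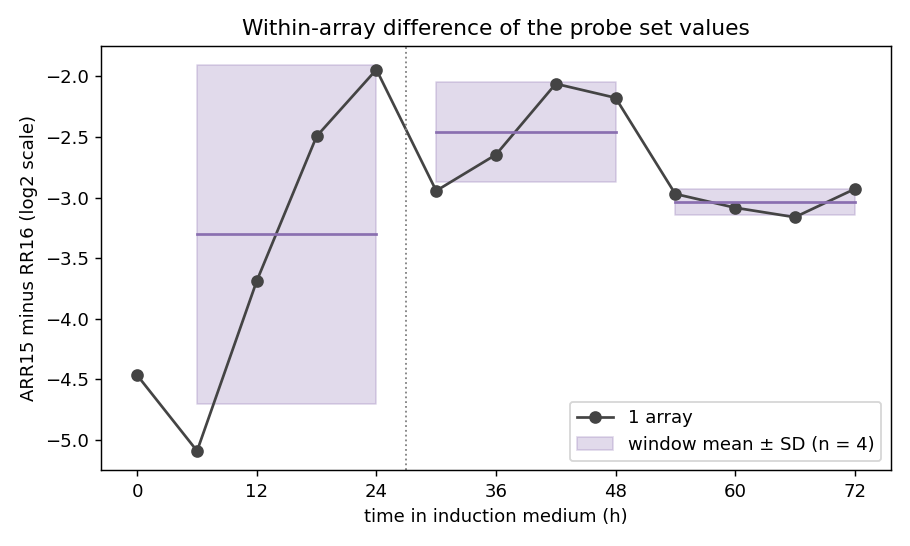
ARR15 minus RR16 on a log2 scale against time in the induction medium in h. Points are single arrays, bands are window means ± SD (n = 4 arrays) and the dotted line marks the break between the array sets. The difference goes from -5.09 at 6 h to -1.94 at 24 h and lies between -3.16 and -2.93 in the late window.

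As a smooth course over all 13 arrays, ARR15 met the rule for a call and RR16 did not. The spline of 3 degrees of freedom in limma gave ARR15 a fitted range of 2.37, with its low at 0 h and its peak at 72 h. Because that 0 h value was under the filter level of 4.03, this call is not taken as a result either. No p is given for it. Such a course was called for 46.3% of all genes, so the call itself is common here. It rested on the 0 h array, without which the range was 1.25 (adjusted p = 0.113). RR16 had a fitted range of 1.28 (adjusted p = 0.139). A spline of 4 degrees of freedom, which can bend more often, gave RR16 a range of 1.40 (adjusted p = 0.0232), and 49% of all genes were called with it. Without the 0 h array the 3-degree spline called RR16 too, with a range of 1.73 (adjusted p = 0.0017).

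A 24 h rhythm was tested over the 12 arrays from 6 h on because type-A regulators are known to vary with the time of day. The seedlings had been raised in continuous light. RR16 had a fitted amplitude of 0.41 (limma adjusted p = 0.205, unadjusted p = 0.00661), and ARR15 had 0.24 (adjusted p = 0.724), which ranged from 0.11 without the 6 h array to 0.39 without the 42 h array. Neither was called, and 0.0728% of all genes were.

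The rest of the cytokinin pathway could be followed only in part. Of 79 other genes in 10 cytokinin lists, 8 had a probe set with 1 annotated gene and 3 passed the filter. Of these 3, 0 were called in the early window against 0 h, 1 was called lower between the early and middle windows, where 8.3% of all genes were, and 0 were called in the late against the middle window. The gene of the 1 call passed the filter only through the arrays in which it was high. Their median log2 differences were 0.07, -0.17 and -0.20, where those over all genes were -0.08, -0.25 and 0.04. Receptors, phosphotransfer proteins, cytokinin response factors, synthesis genes and the other 8 type-A regulators were not analysed here.

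The called gene was RR18, a type-B regulator. It stood at 5.05 at 0 h and at 4.95, 4.87, 4.99 and 4.75 in the early window. In the middle window it was at 3.58, 3.73, 3.77 and 3.89, so that the windows did not overlap, as for 35.5% of all genes in that direction, and its late values ran from 3.52 to 3.98. All values from 30 h on were under the filter level of 4.03, so RR18 was tested only because its values from 0 to 24 h were above it. Its call is therefore not taken as a result, and no p is given for the difference. The log2 difference of the window means was -1.14, and the drop lay at the break between the array sets. The difference was -0.47 on the values as deposited, -0.997 under quantile normalization and -0.13 with a floor at the 40th percentile. None of these was called. Its late against middle difference was 0.03 (adjusted p = 0.92).

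UGT76C1 and UGT76C2 encode enzymes that inactivate cytokinins by attaching glucose to the ring. UGT76C1 was at 6.52 at 0 h, 6.80 ± 0.19 (SD, n = 4) in the early, 6.63 ± 0.20 (SD, n = 4) in the middle and 6.29 ± 0.22 (SD, n = 4) in the late window. Its last difference of -0.34 did not pass (limma adjusted p = 0.136). UGT76C2 was at 5.02, 5.09 ± 0.26 (SD, n = 4), 5.21 ± 0.20 (SD, n = 4) and 5.02 ± 0.29 (SD, n = 4) in the same order, and none of its differences passed (adjusted p between 0.523 and 0.879). Their 95% intervals for the early window against 0 h ran from -0.22 to 0.77 and from -0.52 to 0.66, so changes within those intervals could not be told from none.

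The 5 list genes under the filter were the type-B regulators RR19 and RR21, the type-C regulators RR22 and RR24, which resemble type-A regulators but are not cytokinin-induced, and the transport gene AT1G02630, listed as ENT8. Their medians over the 13 arrays lay between 2.01 and 3.38, where the filter stood at 4.03. With no filter RR24 was called lower in the early window against 0 h, with a log2 difference of -1.32. AT1G02630 was called lower in the middle against the early window, with -1.27, across the break between the array sets. The highest value of AT1G02630 was 3.49, under the filter level. That of RR24 was 4.94, on the lone 0 h array. Neither call is taken as a result, and no p is given. Without the filter, 6.52% and 10.3% of all genes were called lower in these comparisons.

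**Figure D4:**
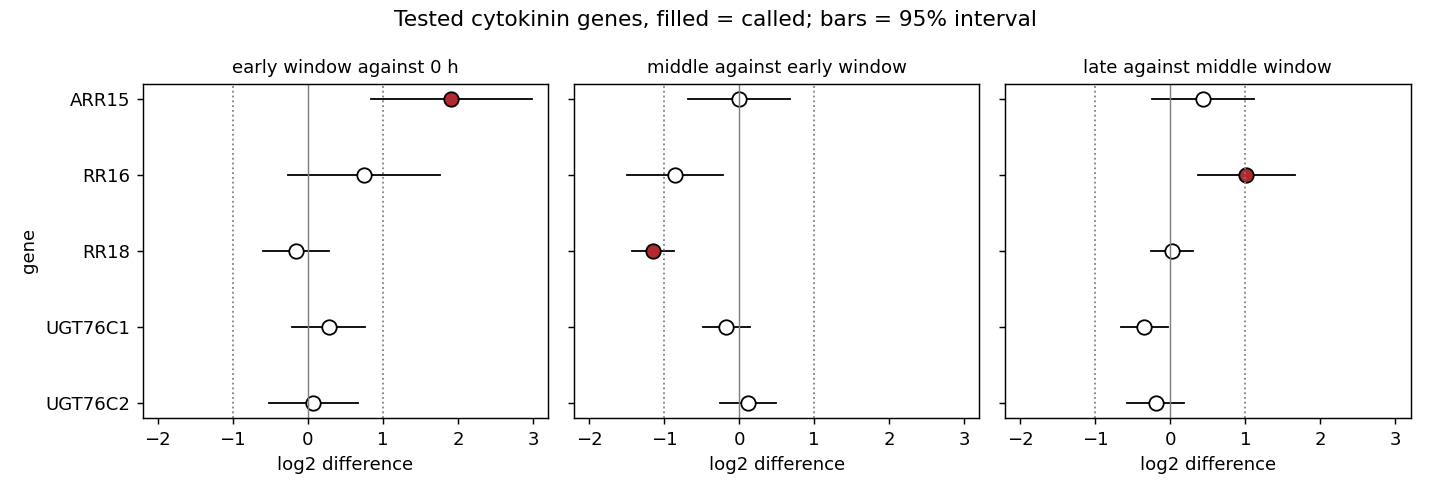
Log2 differences (x axis) of the 5 tested cytokinin genes (y axis) in the 3 window comparisons, with 95% intervals as bars. Filled points were called, open points were not, and dotted lines mark a difference of 1. ARR15 (1.91, with its 0 h value under the filter level) is called in the first comparison. RR18 (-1.14, with values under the filter level from 30 h on) is called in the second and RR16 (1.01) in the third. The calls of ARR15 and RR18 are not taken as results, because each passed the filter through the arrays in which it was high.

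Among the 1329 other tested genes with a symbol, the 5 whose centred values were most like those of ARR15 over the 13 arrays had a Pearson r between 0.89 and 0.93. They were GH9B8, a gene of the endoglucanase family that acts on cell walls (r = 0.93), IQD28, an IQ-domain gene whose family binds calmodulin (0.91), the expansin gene EXPA8, which loosens cell walls (0.90), Phox3 (0.90) and CLE44, which encodes the vascular peptide TDIF (0.89). These arrays share the culture, the array sets and a trend from the lone 0 h array, and r is a description without a test. With the mean of each array set removed, r lay between 0.87 and 0.93. Without the 0 h array it lay between 0.73 for EXPA8 and 0.82 for GH9B8, and with a floor at the 40th percentile between 0.69 for CLE44 and 0.81 for Phox3. Because the genes were picked for this likeness on the same arrays, their levels are given without a test. EXPA8 was at 5.74 at 0 h and at 9.20 ± 1.06, 9.49 ± 0.17 and 9.27 ± 0.18 (SD, n = 4) in the early, middle and late windows. CLE44 was at 6.90 at 0 h and at 9.96 ± 0.54, 10.29 ± 0.08 and 10.18 ± 0.04 (SD, n = 4). The early means of GH9B8, IQD28 and Phox3 lay above their 0 h values by 1.95, 1.69 and 0.69 on the log2 scale.

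The 5 genes most like RR16 were less close, with r between 0.78 and 0.83. They were PRA1.A1 (r = 0.83), of a family of membrane-traffic proteins, ELC-Like (0.81), which resembles a subunit of the endosomal sorting complex, the small GTPase gene SGP1 (0.80), PEX4 (0.80), a ubiquitin-conjugating enzyme of peroxisomes, and TBL38 (0.78), of the wall polysaccharide acetylation family. With set means removed r lay between 0.79 and 0.85, and on the values as deposited between 0.58 and 0.86. These genes too were picked on the same arrays, and their levels are given without a test. SGP1 was at 5.25 at 0 h and at 6.95 ± 0.48, 6.36 ± 0.18 and 7.31 ± 0.25 (SD, n = 4) in the early, middle and late windows. TBL38 was at 6.84 at 0 h and at 7.34 ± 0.43, 6.30 ± 0.24 and 7.03 ± 0.36 (SD, n = 4). The window means of PRA1.A1, ELC-Like and PEX4 differed by at most 0.41 between successive windows, in the late against the middle window of PRA1.A1.

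**Figure D5:**
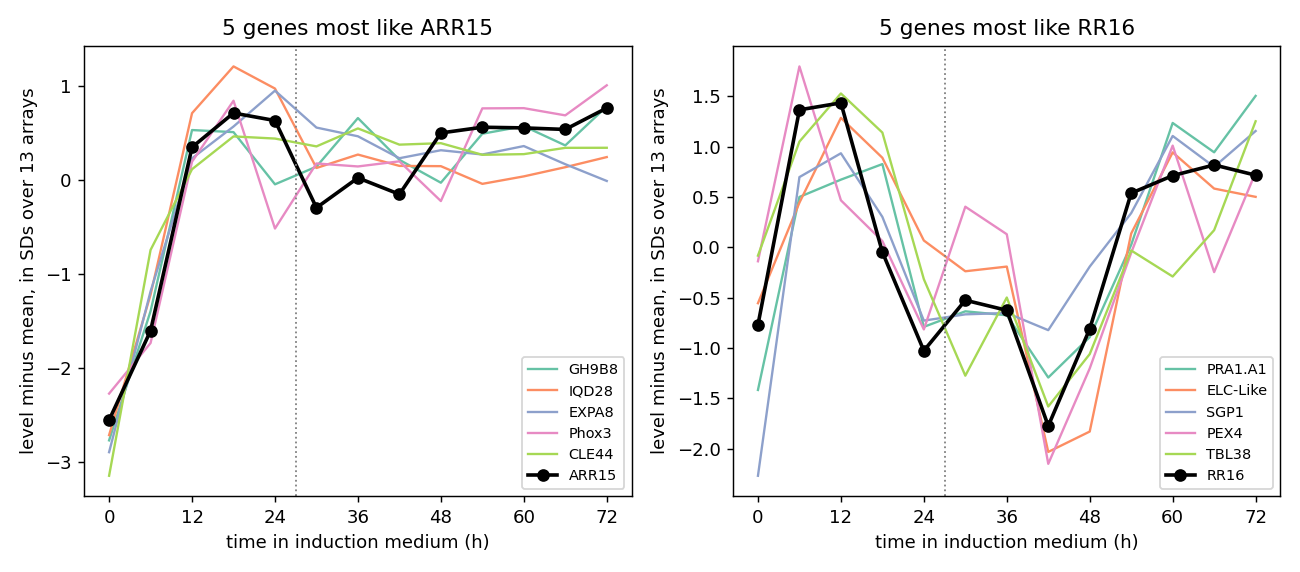
Courses of ARR15 (left, black) and RR16 (right, black) with the 5 genes most like each (coloured), as level minus mean in SDs over the 13 arrays, against time in the induction medium in h. Points and lines join single arrays and the dotted line marks the break between the array sets. The genes like ARR15 are all lowest at 0 h, and those like RR16 are low around 42 h, with r between 0.89 and 0.93 and between 0.78 and 0.83. Of the genes like RR16, SGP1 (5.25 at 0 h, 6.21 at 42 h) and PRA1.A1 (9.38 and 9.41) are also lowest at 0 h.

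No annotated gene overlaps either member, and each had 1 measured gene as its nearest protein-coding neighbour on 1 side. These neighbours were chosen by position. OTP43, next to ARR15, which encodes a mitochondrial RNA-processing protein, had a log2 difference of -0.74 in the early window against 0 h (limma adjusted p = 0.00915), opposite in sign to ARR15. AT2G40660, next to RR16, had -0.01 in the late against the middle window (adjusted p = 0.962). Neither was called in any of the 3 comparisons.

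The labelled cotyledon tissue was seen in the leaf markers at 0 h, and cell type markers moved along with time. Of 14 mesophyll markers 5 were measured, and their summed level on the log2 scale was 13.59 at 0 h, 11.68 to 13.06 in the early, 10.10 to 10.64 in the middle and 9.71 to 10.14 in the late window. Of 6 phloem markers 2 were measured, with sums of 5.17, 5.76 to 7.06, 7.30 to 7.998 and 8.17 to 8.46 in the same order. The 3 of 6 procambium and cambium markers had sums of 9.26, 8.94 to 9.24, 9.32 to 9.90 and 9.87 to 10.28. The 1 of 8 xylem markers, AT1G66810, listed as C3H14, lay at 5.02, 5.48 to 6.30, 5.64 to 6.01 and 6.71 to 7.82. The 3 of 5 stomatal lineage markers summed to 8.68, 8.08 to 8.43, 7.19 to 7.69 and 7.15 to 7.36. Epidermis markers were not analysed here. No measured marker was at 0, and the lowest value, 1.59, was in the stomatal list. SPCH, the stomatal regulator that is known to raise RR16 in leaf lineage cells, was at 7.47 at 0 h and 6.40 ± 0.45 (SD, n = 4) in the early window. It was at 4.75 ± 0.31 (SD, n = 4) in the middle and 4.38 ± 0.21 (SD, n = 4) in the late window. The part of these cell types and of SPCH in the courses of ARR15 and RR16 was not tested.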

How the data were processed

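The deposited log2 values, 1 column per array, ran from 0.33 to 14.03. No source used here gives their base, background correction, summary or normalization, and the submitters' processing notes name GCOS without a role. Precision is limited by the number of arrays. Of the probe sets, 759 had several annotated genes and 20927 none and were not named. Names came from gene identifiers matched to TAIR10.1 (16574 of 16722). Each array was centred on its median, the lowest 30% of probe sets by mean were left out, and the highest probe set of a gene was kept. Window means over all 13 arrays were fitted in R 4.3.3 with limma 3.58.1 (9 residual degrees of freedom, eBayes with intensity trend). The course was a natural spline, and the rhythm a cosine and sine beside linear and quadratic time. The fitting code was tested on simulated data. Named genes were the members, all tested genes of the cytokinin lists and the 5 genes with a symbol most like each member. The members and lists were chosen with earlier results of these data known. Nothing says which samples came from separate cultures, so the spread may be technical. No sequences are shown. Figures used matplotlib 3.10.9.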

Additional observations from a re-analysis of the deposited data

Results flagged for a closer look

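Of 18 sets of 4 arrays examined (the 5 tested cytokinin genes and the within-array difference, in 3 windows), 2 held an array far from the other 3, measured as its gap to the nearest array divided by the whole range. Chance gives about 1 in 20. ARR15 at 6 h lay at 4.42, below the next early array at 5.87, with a ratio of 0.843. ARR15 at 72 h lay at 6.18, above the next late array at 6.03, with a ratio of 0.897 in a window whose SD was only 0.08.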

How the results depend on the processing

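The early rise of ARR15 kept its direction in each of 24 alternatives and its call, which is not taken as a result, in 22. The call ended with the floor at the 40th percentile (0.76) and with only the array set of the comparison (1.91). The difference ranged from 1.74 to 2.31 with single arrays left out. With the lowest 50% of probe sets left out ARR15 was not tested. Its middle against early difference, near 0, was 0.0626 under quantile normalization, 0.187 centred on named probe sets and 0.67 as deposited, and -0.40 to 0.17 with single arrays left out. Its course, whose main call is also not taken as a result, was not called with array weights (1.72, adjusted p = 0.062). The estimation of those weights stopped short of its tolerance in at least 1 fit. With single arrays left out the fitted range of ARR15 ran from 1.25 to 2.49. The late rise of RR16 kept its direction in all 25 alternatives and its call in 14. It was 0.99 under quantile normalization, and 0.98 both centred on named probe sets and as deposited, and 0.84 to 1.10 with single arrays left out. RR16 was called in further comparisons with array weights (middle against early -1.10, course 2.02), with 4 spline degrees of freedom (course 1.40) and with 6 and 12 h alone (1.35). That last call rests on the highest arrays of RR16 and is not taken as a result. With single arrays left out it ranged from 0.54 to 1.05 in the early window against 0 h, from -1.15 to -0.64 between the early and middle windows and from 0.98 to 1.73 in the course. The rhythm of neither member was called in any alternative. The late shift of ARR15 minus RR16 ranged from -0.74 to -0.45 with single arrays left out. The cytokinin genes called, members included, numbered 1 in each window comparison. Those of ARR15 in the early window and of RR18 between the early and middle windows are not taken as results. In the early window they were 2 with no filter and with 6 and 12 h alone, and 0 with the lowest 50% left out, with the floor at the 40th percentile and with only the array set of the comparison. Between the early and middle windows they were 2 with no filter and with array weights, and 0 under quantile normalization, as deposited, centred on named probe sets, with the lowest 50% left out and with the floor at the 40th percentile. In the late window they were 0 under quantile normalization, as deposited and centred on named probe sets. With single arrays left out they were 1 to 2, 1 to 2 and 0 to 1. RR18, late against middle, was -0.0095 under quantile normalization, -0.011 as deposited, -0.0087 centred on named probe sets and -0.013 with array weights, against 0.03, and ranged from -0.0424 to 0.112 with single arrays left out. UGT76C1, middle against early, turned to 0.50 as deposited and 0.0198 centred on named probe sets, and UGT76C2, early against 0 h, ranged from -0.0457 without the 6 h array to 0.157. Where a cause is not shown by the setting itself, it was not tested. The median difference of all genes in the middle against the early window was -0.25, and 0.42 as deposited, so changes there are relative to that shift. No paired analysis was possible because the labels give no replicate numbers. The number of all genes called moved by over 1.5 times in some alternatives. For example, it went from 8 to 68 for the rhythm with array weights and from 5091 to 8915 for the course with no filter. Between the early and middle windows it went from 561 to 1821 higher as deposited. The genes lower there went from 912 to 151 as deposited, 571 centred on named probe sets and 1697 with no filter. With no filter 16550 genes were tested instead of 10984, so those counts have another base, and the 1697 were 10.3% against 8.3%. Signal over background was not given, which limits what can be said of dim values such as ARR15 at 0 h.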
